A study of Rattus norvegicus with 9 samples.

Results

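This account concerns 7 chemokine genes of the rat spinal cord, out of 30507 rows of genes in the deposited tables: the CCR4 ligands Ccl17 and Ccl22 with their receptor Ccr4, the CCR6 ligand Ccl20 with its receptor Ccr6, and the neighbouring ligands Ccl9 and Ccl6. The genes were chosen by name, with the lower levels of the ligands in the stimulated cords of these same libraries already known. For these genes the difference between the stimulated and the unstimulated injured cords is therefore a description, and its counts of calls support nothing. All rats were female wild-type Sprague-Dawley rats, 8 weeks old at the start, and tissue around the injured segment was taken at 35 days post-injury (dpi) after perfusion with saline. Sham rats had a laminectomy only according to the paper, while the labels give them no treatment. SCI rats had a contusion of the cord at T10, and carried the plug of the electrode without the electrode. SCI + SCS rats had the same contusion and an epidural electrode, and were stimulated at 10 kHz for 2 h per day from 1 dpi. A contused group with an implanted but silent electrode was not analysed here, so in these data the electrode and the current cannot be told apart. Each group had 3 libraries, 1 per rat.

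Chemokines are small secreted proteins that draw white blood cells along a gradient through receptors coupled to G proteins. CCL17 and CCL22, made mostly by dendritic cells and macrophages, bind CCR4 on Th2 cells, regulatory T cells and other memory T cells, and CCL20 binds CCR6 on Th17 cells, B cells and immature dendritic cells. CCL9 and CCL6 are rodent chemokines made by myeloid cells, and both act on CCR1, a receptor of monocytes and neutrophils.

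All 7 genes were found in the tables, each on 1 row, and none overlapped another listed gene. In mRatBN7.2, the build that the submitters' processing notes name, Ccl17 lies on chromosome 19 from 10202128 to 10203819 and Ccl22 on the same minus strand from 10257601 to 10264400. The 53781 bases between them hold 2 listed genes, of which Cx3cl1 has a symbol. Ccl22 encodes a chemokine, but the files list its gene type as lncRNA. Ccr4 lies on chromosome 8 from 114176974 to 114178056, Ccr6 on chromosome 1 from 52474168 to 52490122, both on the minus strand, and Ccl20 on the plus strand of chromosome 9 from 84388904 to 84391629. Ccl9 (chromosome 10, 68366487 to 68371369) and Ccl6 (68380188 to 68384001) are paralogs on the same strand, 8818 bases apart with 0 listed genes between them. Reads of paralogs can be shared and their counting is not described, so the split of counts between Ccl9 and Ccl6 is uncertain. The likeness of their transcripts was not measured, and Sham 2 had 328 counts on Ccl6 with 0 on Ccl9.

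Promoters from 250 bases before to 50 bases after the start were held in RefSeq's annotation of GRCr8 for 6 of the 7 genes, all but Ccr4. They were searched on both strands for the NF-κB consensus, the site of the factor through which interleukin 1 and TNF act on Ccl20, and for TTCNNNNGAA, the spaced palindrome bound by STAT6, the factor through which interleukin 4 acts on Ccl17 and Ccl22. The NF-κB consensus was found in 2 of the 6, against 7.51% of the 33469 promoters in the table, and the STAT6 motif in 1 of the 6, against 7.28%. The matched letters do not overlap each other. The stretches that hold a match before the start are shown because a motif picked them out, with the match in capitals. The first is Ccl17 with the STAT6 motif 68 bases before the start (chr19:10209929-10209988, minus strand), the second Ccl20 with the NF-κB consensus 89 bases before it (chr9:91837045-91837104, plus strand), and the third Ccl9 with the NF-κB consensus 106 bases before it (chr10:68868949-68869008, minus strand).
Ccl17: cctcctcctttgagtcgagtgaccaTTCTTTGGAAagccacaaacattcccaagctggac
Ccl20: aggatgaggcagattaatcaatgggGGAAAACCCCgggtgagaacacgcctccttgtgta
Ccl9: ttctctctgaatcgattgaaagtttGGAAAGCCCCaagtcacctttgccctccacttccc
The Ccl9 window held another NF-κB match, 15 bases after the start. The 30 bases around it (chr10:68868844-68868873, minus strand) had a counterpart in the Ccl6 window (chr10:68883403-68883432, minus strand), identical at 23 of 30 positions, while the next best stretch of that window was identical at 15. The pair is shown because of these neighbouring paralogs 1 was nearly absent from Sham cords and the other was not, with the motif in capitals.
Ccl9: gctgtaacacGGGGACTTCCtgatcctctt
Ccl6: gctctaccctGGGCACTTCCtgaacctcct
Of the 7 differences, 1 lay in the motif, G14C, with positions counted from 1 at the 5′ end and the Ccl9 base first, and with it the Ccl6 stretch no longer matched the consensus. A match is a description of letters, and binding was not measured.

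The libraries held between 62844376 and 88358570 counts on genes. A level of 3 counts, used here as the floor that a count of 0 allows, corresponded to between 0.0341 and 0.0472 CPM (counts per 1000000, with TMM factors over the 9 libraries), and floors and intervals cover counting error only. Markers of neurons (Snap25, Syt1, Rbfox3), oligodendrocytes (Mbp, Mog) and astrocytes (Gfap, Aqp4, Slc1a2) had counts in all 9 libraries. The summed level of 9 measured genes of skeletal muscle, a tissue next to the cord, was 3824 CPM in SCI 1 and 1178 CPM in SCI 3, against 10.1 CPM in SCI 2, 11.5 to 53.3 CPM in the Sham and 10.4 to 12.8 CPM in the SCI + SCS libraries. The SCI 2 library, with muscle genes at the Sham level, had the highest SCI level of Ccr4, Ccl20, Ccr6, Ccl9 and Ccl6, and its Ccl17 and Ccl22 lay between those of the other 2 SCI libraries. Sham 1 also stood apart, with motor neuron markers at 92.5 CPM against 33.1 and 36.6 CPM, and fibroblast genes at 321.5 CPM against 876 and 1365 CPM in the other Sham libraries.

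The CCR4 ligands were scarce in Sham cords and plainly present in injured ones. Ccl17 had 11, 25 and 0 counts in the Sham libraries (0.173, 0.284 and 0 CPM), 181, 149 and 71 in the SCI libraries (2.30, 2.11 and 1.03 CPM), and 20, 17 and 30 in the SCI + SCS libraries (0.281, 0.241 and 0.470 CPM). Every SCI library was above every other library, and the Sham and SCI + SCS ranges overlapped. Ccl22 had 0, 6 and 12 counts in the Sham libraries (0, 0.0682 and 0.137 CPM), 256, 201 and 71 in the SCI libraries (3.25, 2.85 and 1.03 CPM), and 32, 12 and 25 in the SCI + SCS libraries (0.449, 0.170 and 0.392 CPM). Its 3 groups did not overlap, with SCI highest and Sham lowest. Pair by pair, 32.6% of all genes tested had every SCI library above every Sham library. For SCI + SCS above Sham the share was 27.2%, and for SCI above SCI + SCS, the difference that entered the choice, 13.9%. SCI 3 was the lowest SCI library for both CCR4 ligands. Cx3cl1, the gene with a symbol between them, encodes a chemokine of neurons and was picked for its position. It was at 101.5 ± 17.6 CPM in Sham, 96.7 ± 5.47 CPM in SCI and 117.8 ± 11.8 CPM in SCI + SCS cords (SD, n = 3). Its Sham range held that of SCI. Every SCI + SCS library of Cx3cl1 (104.9 to 128.1 CPM) lay above every SCI library (90.8 to 101.5 CPM).

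**Figure D1:**
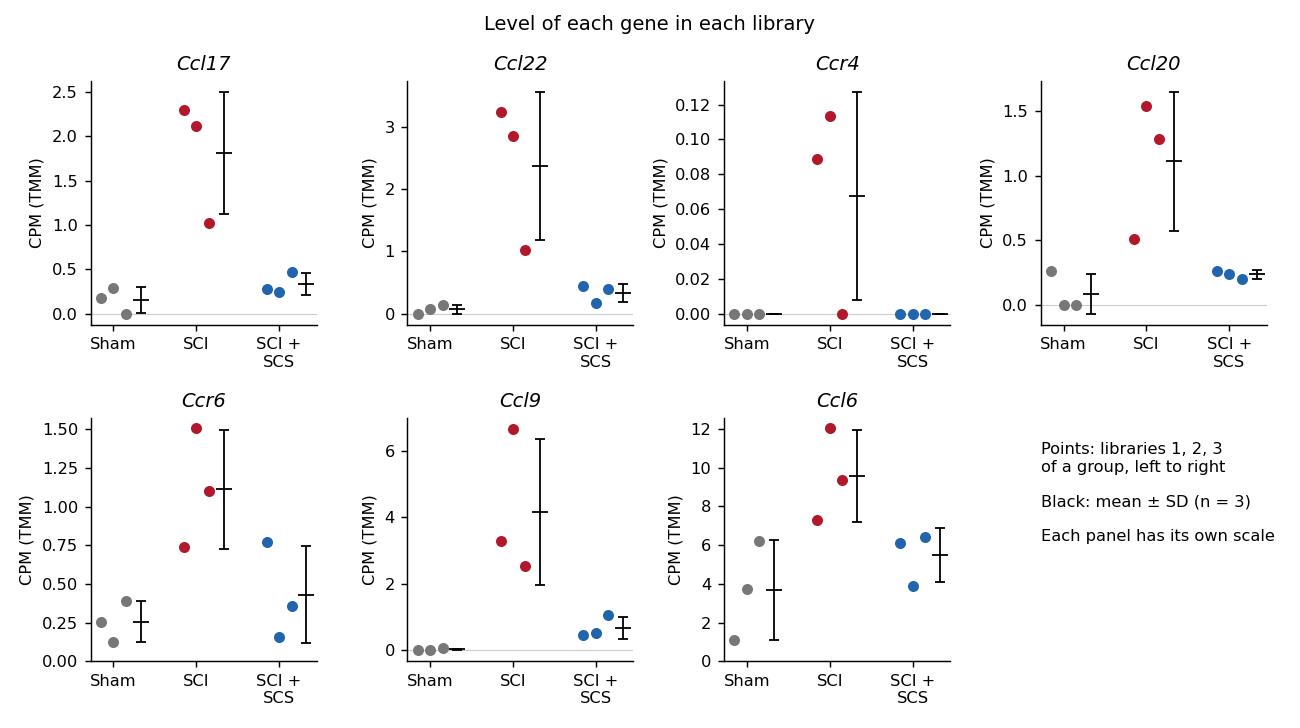
Level of the 7 genes in each of the 9 libraries, in CPM with TMM scaling (y axis, a separate linear scale per panel), with points for libraries 1, 2 and 3 of a group from left to right and black marks for the mean ± SD (n = 3). The SCI points of Ccl17, Ccl22, Ccl20 and Ccl9 all lie above the SCI + SCS points, Ccr4 has counts only in SCI 1 and SCI 2, and Ccr6 overlaps between SCI and SCI + SCS.

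Ccr4, the receptor of both, was at the edge of detection. It had 7 and 8 counts in SCI 1 and SCI 2 (0.0888 and 0.114 CPM) and 0 counts in SCI 3, in all Sham and in all SCI + SCS libraries. With the groups at 0 set to the floor of 3 counts per library, the SCI mean was at least 1.75-fold higher than Sham and at least 1.54-fold higher than SCI + SCS, and SCI 3 was itself under that floor. Ccr4 did not pass edgeR's filter on low counts in any comparison. The receptor was therefore not detectable at this depth in 7 of the 9 libraries.

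Ccl20, a ligand induced by interleukin 17, interleukin 1 and TNF, had 17 counts in Sham 1 and 0 in the other Sham libraries (0.267, 0 and 0 CPM), 40, 108 and 89 in the SCI libraries (0.508, 1.53 and 1.29 CPM), and 19, 17 and 13 in the SCI + SCS libraries (0.267, 0.241 and 0.204 CPM). The SCI + SCS libraries were close to each other, below every SCI library, and within the Sham range, whose upper end was set by Sham 1 alone. Ccr6 had 16, 11 and 34 counts in the Sham libraries (0.252, 0.125 and 0.389 CPM), 58, 106 and 76 in the SCI libraries (0.736, 1.504 and 1.10 CPM), and 55, 11 and 23 in the SCI + SCS libraries (0.772, 0.156 and 0.360 CPM). SCI + SCS 1 reached the lower end of the SCI range for this receptor, while the other 2 stimulated cords were within the Sham range. In contrast to its ligand, Ccr6 thus had counts in every library.

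Ccl9 was nearly absent from Sham cords and had the largest log2 fold change of the 6 genes fitted between SCI and Sham. It had 0, 0 and 4 counts in the Sham libraries (0, 0 and 0.0458 CPM), 259, 469 and 174 in the SCI libraries (3.29, 6.66 and 2.51 CPM), and 32, 36 and 67 in the SCI + SCS libraries (0.449, 0.511 and 1.05 CPM). As for Ccl22, and with the same shares of all genes and the same limit, the 3 groups of Ccl9 did not overlap. Its neighbour Ccl6 was present in all cords, with 69, 328 and 545 counts in the Sham libraries (1.09, 3.73 and 6.23 CPM), 574, 847 and 646 in the SCI libraries (7.28, 12.02 and 9.33 CPM), and 437, 273 and 409 in the SCI + SCS libraries (6.13, 3.87 and 6.41 CPM). Every SCI library was above all others for Ccl6 too, by a small gap, while Sham and SCI + SCS overlapped and Sham 1 was the lowest of the 9.

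The balance of the 2 paralogs differed between the groups. Of the counts on Ccl9 and Ccl6 together, Ccl9 took 31.1% (95% Wilson interval 28.0 to 34.3%) in SCI 1, 35.6% (33.1 to 38.3%) in SCI 2 and 21.2% (18.6 to 24.2%) in SCI 3. In the SCI + SCS libraries it took 6.82% (4.87 to 9.47%), 11.7% (8.54 to 15.7%) and 14.1% (11.2 to 17.5%). In the Sham libraries it took 0 of 69 counts (0 to 5.27%), 0 of 328 (0 to 1.16%) and 0.729% of 549 (0.284 to 1.86%). The shares of the 3 groups did not overlap, though the intervals of Sham 1 and SCI + SCS 1 did. Since the Ccl9 level entered the choice of the genes, the SCI and SCI + SCS shares are a description.

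**Figure D2:**
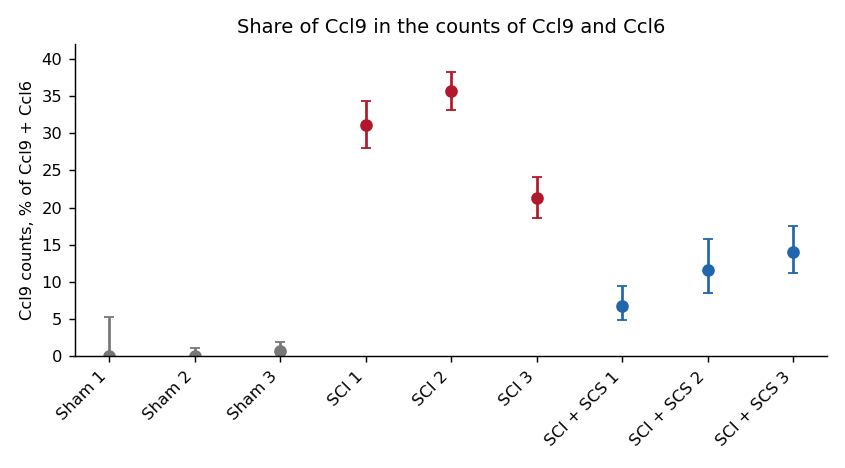
Share of Ccl9 in the summed counts of Ccl9 and Ccl6 (y axis, percent) in each library (x axis), with 95% Wilson intervals that cover counting error only. The shares lie at 0 to 0.729% in Sham, 21.2 to 35.6% in SCI and 6.82 to 14.1% in SCI + SCS libraries.

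Levels of different genes were compared on the deposited FPKM, which divides counts by gene length, so that the Ccl22 value rests on the length of the model that the files list. In Sham cords Ccl6 was highest at 1.83 ± 1.28 FPKM (SD, n = 3), apart from Ccl17 at 0.228 ± 0.221, and the remaining neighbours in the order, Ccl20, Ccr6, Ccl22, Ccl9 and Ccr4, overlapped pair by pair. In SCI cords Ccl6 (4.77 ± 1.51 FPKM), Ccl17 (2.73 ± 0.949) and Ccl9 (2.61 ± 1.51) overlapped as neighbours, and so did Ccl22 (1.05 ± 0.491) and Ccl20 (0.965 ± 0.515) below them. The lowest Ccl9 library stood above the highest Ccl22 library, and both receptors stood below every ligand, with Ccr6 at 0.221 ± 0.0900 and Ccr4 at 0.0489 ± 0.0448 FPKM. In SCI + SCS cords the order was Ccl6 (2.78 ± 0.716), Ccl17 (0.506 ± 0.189), Ccl9 (0.424 ± 0.214), Ccl20 (0.203 ± 0.0278), Ccl22 (0.153 ± 0.0679) and Ccr6 (0.0856 ± 0.0647 FPKM). There Ccl6 was apart from Ccl17, Ccl9 was apart from Ccl20, and the other neighbours overlapped except Ccr6 and Ccr4, which was at 0. Ccl9, at rank 6 of 7 in Sham cords, was thus at rank 3 in both injured groups.

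**Figure D3:**
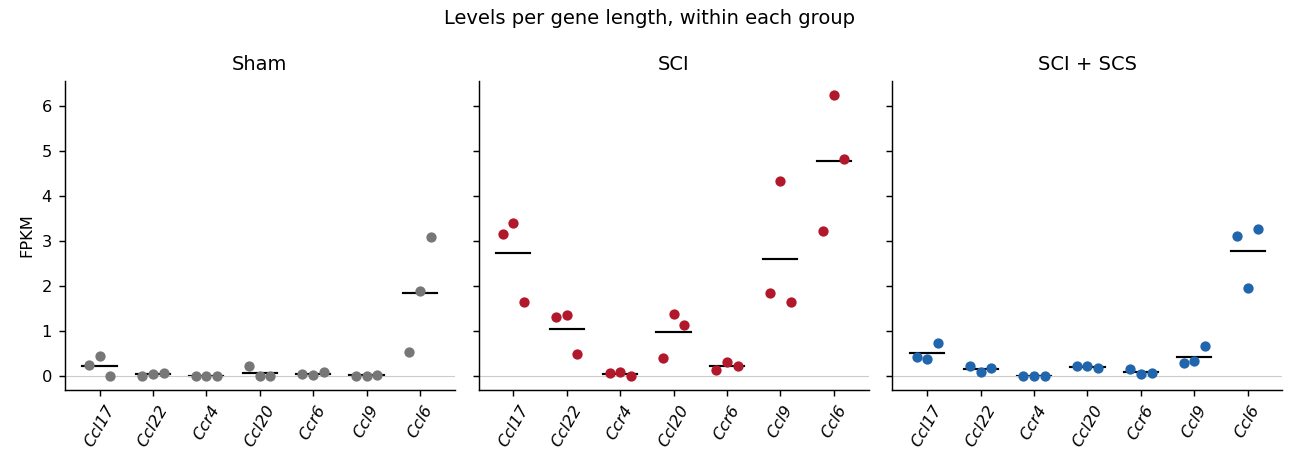
FPKM (y axis, linear and shared) of the 7 genes, with a panel for each of the 3 groups, a point per library (1, 2 and 3 from left to right) and a line at the mean of 3. Ccl6 leads in each group, and Ccl17 and Ccl9 lie next to it in SCI cords at 2.73 and 2.61 FPKM.

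To ask how injury alone changed these genes, SCI and Sham counts were compared with the quasi-likelihood test of edgeR, adjusted over 17822 genes by the Benjamini-Hochberg method, and with a call at an absolute log2 fold change above 1 and an adjusted p under 0.05. The SCI libraries of this test also entered the difference by which the genes were chosen. Of the 6 genes that passed the filter, 4 were called higher in SCI cords, while 13.4% of all genes tested were. Ccl17, Ccl22, Ccl20 and Ccl9 passed that filter only through their SCI libraries and could hardly have been called lower. Counts set beside shares of all genes in this comparison are therefore a description. Ccl9 rose most, with a log2 fold change of 7.83 ± 0.94 (SE) and an adjusted p of 0.00192 in edgeR, a size that leans on the 2 Sham libraries at 0. Ccl22 rose by 5.0 ± 0.91 (adjusted p = 0.00565, edgeR), Ccl17 by 3.55 ± 1.01 (adjusted p = 0.0267, edgeR) and the receptor Ccr6 by 2.10 ± 0.52 on the log2 scale (adjusted p = 0.0158, edgeR). Ccl20, at 3.72 ± 1.39 (adjusted p = 0.0628, edgeR), and Ccl6, at 1.36 ± 0.57 (adjusted p = 0.09, edgeR), did not pass. For all 6 genes every SCI library lay above every Sham library, as for 32.6% of all genes tested. DESeq2, the tool of the study's methods, called these 6, and 13.6% of the genes to which it gave an adjusted p were called higher.

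Single libraries decided 4 of these results. Without Sham 1, the only Sham library with Ccl20 counts, Ccl20 was called at a log2 fold change of 9.44 (adjusted p = 0.00669, edgeR), which is no bound since its remaining Sham libraries were at 0. The Ccl17 call was lost without Sham 1, SCI 1 or SCI 2 (adjusted p = 0.0643, 0.067 and 0.0693, edgeR), and the Ccr6 call without SCI 2 (adjusted p = 0.0533, edgeR). Ccl6 was called without Sham 3, at a log2 fold change of 1.96 (adjusted p = 0.0339, edgeR). Ccl9 and Ccl22 were called whichever of the 6 libraries was left out, but their sizes moved. Without Sham 3, the only Sham library with Ccl9 counts, the log2 fold change of Ccl9 was 11.26, which is no bound, and that of Ccl22 was 5.89. That of Ccl17 was 2.94 without Sham 3 and 4.44 without Sham 2.

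The stimulated cords were set against Sham to ask what remained different at 35 dpi, over 17640 genes, in a comparison that shares its Sham libraries with the preceding one. Ccl9 was the only one of 6 genes called, with a log2 fold change of 5.21 ± 0.98 (SE, adjusted p = 0.0124, edgeR), against 6.28% of all genes tested, and it was called without each of the 6 libraries in turn. Without Sham 3 its log2 fold change was 8.58, against Sham libraries that were then all at 0. Ccl17, Ccl22, Ccl20 and Ccl9 passed the filter only through their SCI + SCS libraries and could hardly have been called lower. Here too, counts set beside shares of all genes are therefore a description. Ccl22 was at 2.21 ± 0.89 (adjusted p = 0.0990, edgeR) and did not pass. Ccl22 and Ccl9 were the 2 genes whose SCI + SCS libraries all lay above the Sham libraries, as for 27.2% of all genes tested. Ccl17 (1.11 ± 1.01, adjusted p = 0.418), Ccl20 (1.53 ± 1.34, adjusted p = 0.403), Ccr6 (0.75 ± 0.69, adjusted p = 0.422) and Ccl6 (0.57 ± 0.57, adjusted p = 0.466, all edgeR) had standard errors close to the size of their log2 fold changes. Without Sham 1, Ccl20 was called as well (7.19, adjusted p = 0.0157, edgeR), again with both remaining Sham libraries at 0.

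In the comparison by which the genes were chosen, SCI + SCS against SCI, all 6 had a lower level in the stimulated cords. The log2 fold changes were -2.81 ± 0.55 for Ccl22, -2.62 ± 0.50 for Ccl9, -2.45 ± 0.44 for Ccl17 and -2.20 ± 0.48 for Ccl20 (edgeR, ± SE). Those of Ccr6 and Ccl6 were smaller, at -1.36 ± 0.59 and -0.79 ± 0.26, and without SCI + SCS 1 that of Ccr6 was -2.10. Counts of calls in this comparison restate the choice of the genes, and nothing is read from them. By edgeR 0 of the 6 genes were called lower (0% of 17663 genes tested), by edgeR at an unadjusted p under 0.05 with the same fold threshold 4 were (2.56%), and by DESeq2 the same 4, Ccl17, Ccl22, Ccl20 and Ccl9, were (2.14%). In 5 genes, all but Ccr6, every SCI library lay above every SCI + SCS library, as in 13.9% of all genes tested. In an alternative added after seeing the muscle genes, SCI 2 alone was taken as the SCI group. The differences were then larger, between -1.14 for Ccl6 and -3.32 for Ccl9. Larger values were bound to follow, since this single library lay above the SCI mean for each of the 6 genes. Its muscle genes were at the Sham level, but its summed level of adipocyte genes, 116.5 CPM, was the highest of any library. Whether the differences hold without neighbouring tissue was not tested. In whole tissue, fewer cells of a type and less RNA per cell cannot be told apart.

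**Figure D4:**
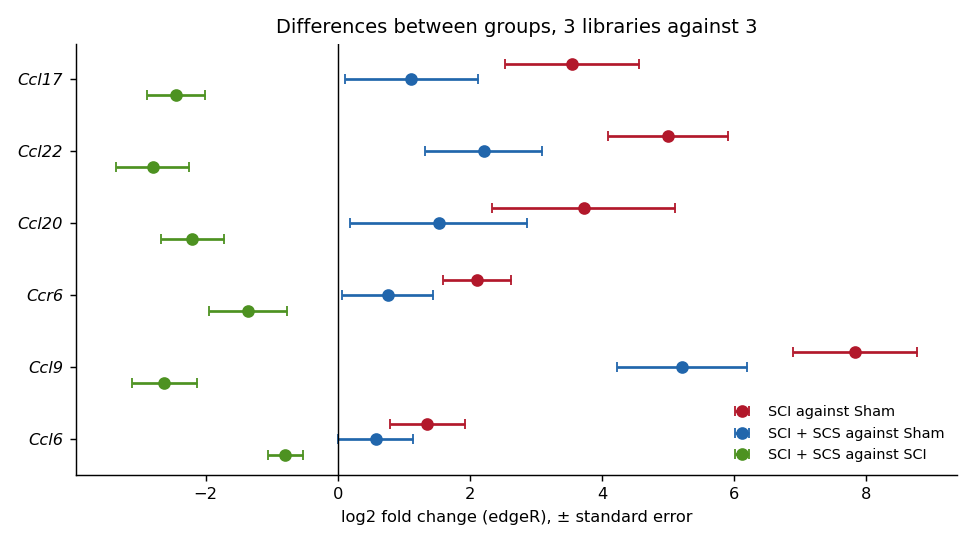
Log2 fold changes from edgeR (x axis, ± SE, 3 libraries against 3) of the 6 genes that passed the filter, in 3 comparisons that share libraries with each other. Ccl9 reaches 7.83 in SCI against Sham and 5.21 in SCI + SCS against Sham, and the SCI + SCS against SCI values, from -0.79 to -2.81, are those by which the genes were chosen.

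Most other CC ligands, and a minority of the receptors, rose with injury. Of 11 other CC ligands tested, 8 were called higher in SCI than in Sham cords, with a median log2 fold change of 2.80 against 0.02 over all genes. Ccl12, a monocyte attractant of rodents (5.56 ± 1.36, adjusted p = 0.0158, edgeR), and Ccl11, an attractant of eosinophils (3.998 ± 0.97, adjusted p = 0.0153, edgeR), changed most. In SCI + SCS against Sham 4 were called, Ccl3, Ccl4, Ccl7 and Ccl12 (log2 fold changes of 2.86, 3.20, 1.46 and 3.44). Of 10 other receptors and decoys 4 were higher in SCI cords, led by Ccr7, the homing receptor of mature dendritic cells and naive T cells (5.36 ± 0.99, adjusted p = 0.00582, edgeR), with Ccrl2, Ccr2 and Ackr4. The median log2 fold change of the 10 was 0.50, and their summed level was 47.2 to 53.8 CPM in Sham and 37.5 to 54.1 CPM in SCI libraries. In SCI + SCS cords 2 were, Ccr7 (4.38) and Ccrl2 (1.33). Ccr1, the receptor of CCL9 and CCL6, was not analysed here.

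The inducers were divided. Il4 and Il13, the cytokines that switch on Ccl17 and Ccl22 through STAT6, were at 0 counts in every SCI and SCI + SCS library, which allows up to 3 counts of each per library, and of the Sham libraries Sham 1 alone held 4 counts of Il4. Of 8 tested genes of that list, 4 were higher in SCI than in Sham cords, the receptor chains Csf2ra (1.75 ± 0.13, adjusted p = 0.00103), Crlf2 (1.60 ± 0.13, adjusted p = 0.00109, both edgeR) and Il13ra1 (1.08), and Stat6 (1.24). In SCI + SCS against Sham the 2 called were Csf2ra (1.35) and Crlf2 (1.10). For Ccl20, 8 of 10 tested inducers and mediators were higher in SCI cords, among them Tnf (1.85 ± 0.55, adjusted p = 0.03, edgeR) and Nfkb2, a subunit of NF-κB (1.77 ± 0.24, adjusted p = 0.00245, edgeR). Il17a had 0 counts in all Sham and SCI libraries and in SCI + SCS 2 and 3, and 3 counts in SCI + SCS 1, at the floor. In SCI + SCS against Sham 3 were called, Tnfrsf1a (1.40), Relb (1.36) and Nfkb2 (1.33).

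**Figure D5:**
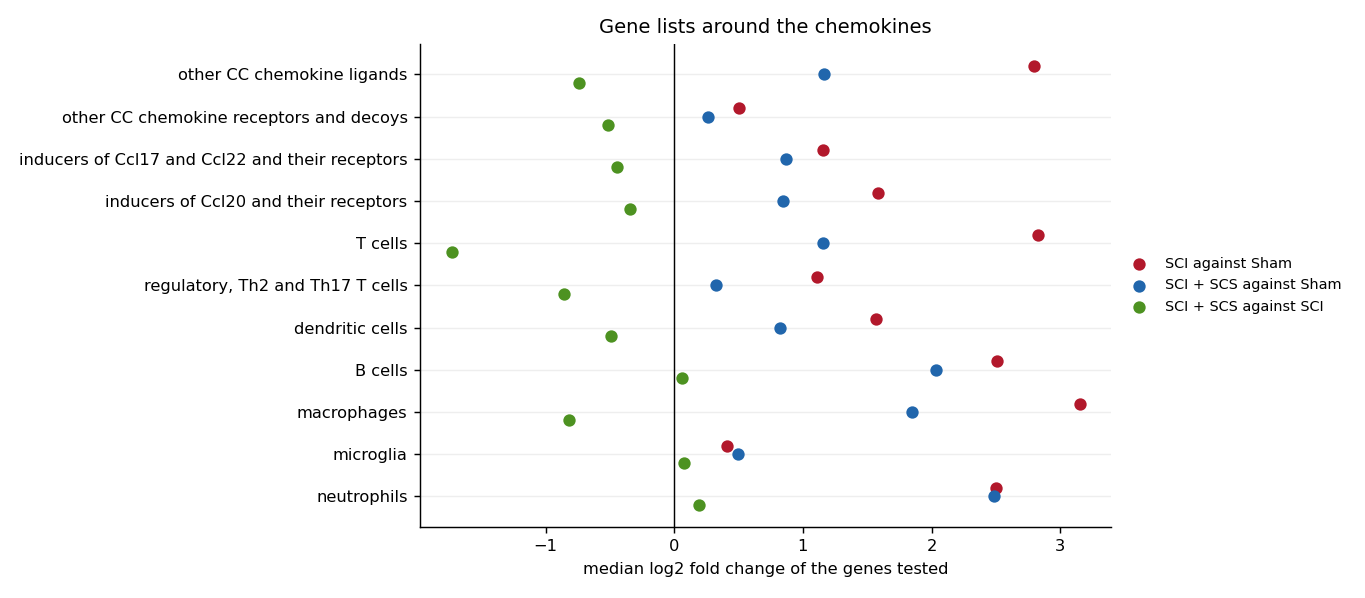
Median log2 fold change (x axis) of the tested genes of 11 lists of related chemokines, inducers and immune cell markers, in 3 comparisons that share libraries. The median of T cell markers lies at 2.82 in SCI against Sham, 1.16 in SCI + SCS against Sham and -1.73 in SCI + SCS against SCI, and that of neutrophil markers at 2.50, 2.49 and 0.20. That of macrophage markers lies at 3.15, 1.85 and -0.82.

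Cells that make or follow these ligands were read from their markers. Of 7 T cell genes 5 were higher in SCI than in Sham cords, with Cd8a at 5.56 ± 0.29 (adjusted p = 0.000783, edgeR) and Cd3g, a chain of the T cell receptor complex, at 3.34 ± 0.39 (adjusted p = 0.00182, edgeR), followed by Cd3e, Cd2 and Cd4, and 2 were higher in SCI + SCS cords, Cd8a (4.86) and Cd4 (1.65). In rats Cd4 is also carried by macrophages. The summed level of the 7 was 22.04 to 58.2 CPM in Sham, 129.2 to 193.4 CPM in SCI and 109.0 to 146.4 CPM in SCI + SCS libraries, and none of the 7 was at 0 throughout a group. Cd3e and Cd2 made up little of that sum. Cd3e averaged 0.267, 2.09 and 0.472 CPM in Sham, SCI and SCI + SCS cords, and Cd2 0.339, 2.46 and 0.707 CPM. Among the genes of regulatory, Th2 and Th17 cells, Foxp3 of regulatory T cells (1.79) and Gata3 of Th2 cells (1.17) were called higher in SCI than in Sham cords. In SCI + SCS against Sham 0 of the 5 genes tested were by edgeR, also at an unadjusted p under 0.05 with the same fold threshold, and 0 by DESeq2. The summed level of that list was 1.90 to 4.80 CPM in Sham, 6.99 to 9.09 CPM in SCI and 3.04 to 5.91 CPM in SCI + SCS libraries, with Il22 at 0 in all 9.

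Of 11 dendritic cell genes 6 were higher and 1, Flt3, the receptor of their growth factor (-1.32), was lower in SCI than in Sham cords, where 13.6% of all genes tested were called lower. Ccr7, which stands on this list too, and Itgax (3.598 ± 0.56, adjusted p = 0.00346, edgeR) rose most, and in SCI + SCS against Sham 3 were called, Ccr7 (4.38), Itgax (2.38) and Batf3 (1.81). Their summed level was 82.3 to 99.6 CPM in Sham, 102.1 to 120.5 CPM in SCI and 82.2 to 97.2 CPM in SCI + SCS libraries. Of 7 macrophage genes 6 were higher in SCI cords, led by Gpnmb (6.20 ± 0.43, adjusted p = 0.000977, edgeR) and Cd68 (5.81 ± 0.57, adjusted p = 0.00137, edgeR), and 4 in SCI + SCS cords, Gpnmb, Cd68, Lyz2 and Adgre1. Their summed level was 78.1 to 336 CPM in Sham, 2101 to 3326 CPM in SCI and 1549 to 1614 CPM in SCI + SCS libraries. The part of these cells in the levels of the chemokine genes was not tested. Of the 3 microglia genes tested, 0 were called in either comparison with Sham by edgeR, at an unadjusted p under 0.05 with the same fold threshold, or by DESeq2.

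Other cell types moved with injury as well. Of 4 neutrophil genes 3, S100a8, S100a9 and Csf3r, were higher in both injured groups, with S100a8 at 2.69 in SCI and 2.95 in SCI + SCS cords against Sham. Of 3 tested B cell genes, 2 were higher in SCI cords, Cd79a (2.51) and Cd79b (2.69), and 1 in SCI + SCS cords, Cd79a (2.04). All 3 neuron markers and the oligodendrocyte genes Mbp (-1.40) and Mog (-1.50) were lower in SCI than in Sham cords. The neuron markers Snap25 (-1.22) and Syt1 (-1.61) were also lower in SCI + SCS than in Sham cords, where 5.44% of all genes tested were called lower. Of the 4 adipocyte genes tested 3 were higher in SCI cords, led by Fabp4 (6.40), which macrophages express as well, and their summed level was 3.25 to 9.51 CPM in Sham, 88.5 to 116.5 CPM in SCI and 27.2 to 43.7 CPM in SCI + SCS libraries. All 4 fibroblast genes were higher in SCI cords, led by Col1a2 (1.89), while in SCI + SCS against Sham 0 of the 4 were by edgeR, at an unadjusted p under 0.05 with the same fold threshold, or by DESeq2. Of the 9 muscle genes tested 7 were called higher in SCI than in Sham cords, but their summed level was raised only in SCI 1 and SCI 3. It was 10.1 CPM in SCI 2 and 10.4 to 12.8 CPM in the SCI + SCS libraries, which came from contused cords as well.

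Between the stimulated and unstimulated injured cords, 0 of the 110 list genes tested were called by edgeR, where 1 of 17663 genes was called higher (0.00566%) and 0 lower. At an unadjusted p under 0.05 with the same fold threshold, 23 list genes were lower and 3 higher in SCI + SCS cords, against 2.56% and 3.03% of all genes tested. Of these 23, 8 were muscle genes. The lists were chosen with earlier results of these data known, so counts of list genes in this comparison are a description. DESeq2 called 24 lower and 3 higher, against 2.14% and 2.53% of the genes to which it gave an adjusted p, and 9 of the 24 were muscle genes. The others were of several lists, given here with DESeq2's log2 fold changes and named after their values were seen. They were the adipocyte genes Fabp4 (-1.68), Cfd (-1.64) and Pparg (-1.015), and the ligands Ccl2 (-1.19), Ccl5 (-1.48), Ccl11 (-2.86) and Ccl12 (-2.14). The T cell genes were Cd3e (-2.15), Cd3g (-1.74), Cd5 (-1.41) and Cd2 (-1.80), and the dendritic cell genes Xcr1 (-1.66) and Itgax (-1.23). The macrophage gene Ms4a7 (-1.55) and Il1b (-1.11) completed them. The 3 called higher were the neuron and motor neuron markers Rbfox3 (1.04), Syt1 (1.88) and Slc5a7 (1.34). The median log2 fold change over the T cell list was -1.73, against -0.01 over all genes. Other lists lay below 0 too, with medians of -7.28 for muscle and -1.32 for adipocyte genes. The median was -0.85 for regulatory, Th2 and Th17 genes, -0.82 for macrophage genes and -0.74 for the other CC ligands. Those of the neutrophil, microglia and B cell lists were 0.20, 0.08 and 0.06, and that of the neuron list was 1.05.

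The genes whose pattern over the 9 libraries was most like that of each chemokine gene were found among 16278 genes by the root mean square difference of log2(CPM + 0.5), centred on each gene's own mean. This is a description over libraries that include those by which the genes were chosen. Nearest to Ccl17 were LOC100909964 (0.268), the T cell marker Cd7 (0.274) and Cd3e (0.294), with Ccl22 next at 0.323 and a median distance of 0.859 over all genes. Nearest to Ccl22 were Cd2 (0.292), Ccl17 (0.323) and Cst7, an inhibitor of proteases in cytotoxic lymphocytes and myeloid cells (0.326), with a median of 1.04. Cd3e stood at 0.267, 2.09 and 0.472 CPM and Cd7 at 0.717, 4.23 and 0.95 CPM on average in Sham, SCI and SCI + SCS cords, beside 0.152, 1.81 and 0.331 CPM for Ccl17.

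The nearest genes of Ccl9 were Scimp, an adaptor of antigen-presenting cells (0.248), Cst7 (0.351) and Ctsw, a protease of cytotoxic lymphocytes (0.406), against a median of 1.32, and Ccl22 came 11th. Scimp stood at 0.212, 5.23 and 1.42 CPM and Cst7 at 0.208, 4.21 and 0.816 CPM on average in Sham, SCI and SCI + SCS cords, beside 0.0153, 4.15 and 0.670 CPM for Ccl9. Nearest to Ccl20 were Dmrtc2 (0.228), LOC102552530 (0.229) and Meis3 (0.266), against a median of 0.718. Nearest to Ccr6 were Tjp3, a protein of tight junctions (0.140), Pcsk5 (0.186) and Clmp (0.195), against 0.605, and nearest to Ccl6 were Aox4 (0.127), RGD1559575 (0.135) and Hspg2, the proteoglycan perlecan of basement membranes (0.182), against 0.838. Ccl6 stood far from Ccl9 by this measure, at 0.877, farther than the median gene from Ccl6 though nearer than the median gene from Ccl9, and Ccr6 stood at 0.345 from its ligand Ccl20.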

How the data were processed

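The authors enriched mRNA from spinal cord tissue with oligo(dT) beads and deposited whole-number counts per gene, not normalized, and FPKM, counts scaled by gene length and library total. The submitters' processing notes name fastp 0.23.2, HISAT2 2.2.1 and the build mRatBN7.2, and the counting program is not given in the sources used here. Columns were matched to libraries by name. In all, 494 identifiers stand on several rows, which were kept apart, and none of the 7 genes is among them.

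The genes and all gene lists were chosen with earlier results of these data known. Counts were compared over the 6 libraries of 2 groups with edgeR 4.0.16 in R 4.3.3 (TMM, filterByExpr, quasi-likelihood test, SE as the absolute log2 fold change divided by the square root of F, Benjamini-Hochberg adjustment over all genes tested), without covariates. The study's methods name DESeq2 with the same thresholds, and DESeq2 1.42.0 was the first alternative. Genes with an adjusted p of NA in DESeq2 were left out of its shares. The deposited FPKM were tested with limma 3.58.1 on log2(FPKM + 1) and log2(FPKM + 0.1), for genes with a mean of at least 0.1, and fold changes on that scale understate those of low genes. Other alternatives were another scaling, other filters, all 9 libraries in one fit, a replicate block and leaving out each library. The tests were checked on simulated counts with 200 genes changed 4-fold. Those genes were drawn from well-counted ones, so the check does not reach genes near 0 counts in a group. P-values measure the spread between 3 rats per group. Named genes were the 7 members, the 3 genes nearest to each, the 2 called genes of each list with the largest absolute log2 fold change in each direction against Sham and the tissue markers. Genes outside this rule, such as other called genes of a list, Cx3cl1 or Il4, were named after their values were seen. A repeated symbol was represented by its row with the highest total. Some genes that this rule selects are not reported here.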

Additional observations from a re-analysis of the deposited data

How the results depend on the processing

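No log2 fold change of the chemokine genes changed its direction under the alternatives run, and those of the list genes were not followed one by one. In SCI against Sham, 4 of the chemokine genes were called, 1 with at least 10 counts required in every library (Ccr6, since Ccl17, Ccl22, Ccl20 and Ccl9 were then not tested), and between 2 and 5 when a library was left out. With SCI 2 alone as the SCI group, 1 was called (Ccl9), on the assumption that a lone library varies like the Sham libraries. In SCI + SCS against Sham 1 was called, 0 with at least 10 counts in every library (Ccl9 was not tested), 0 with limma on log2(FPKM + 1), where the pseudocount shrinks low genes, and 1 to 2 when a library was left out. In SCI + SCS against SCI 0 were called, 4 with DESeq2 and 0 to 0 when a library was left out. Of the list genes, 72, 31 and 0 were called in the 3 comparisons, 27 in the last with DESeq2, and 47 to 65, 17 to 43 and 0 to 9 when a library was left out (fewest in the second without SCI + SCS 1, most in the third without SCI 2). The cause was not tested. Same-numbered rats did not deviate together in every pair (correlations from -0.22 to 0.14). With 3 rats per group these values cannot decide whether the numbers pair the rats. With the replicate number as a block, 5, 1 and 0 of the chemokine genes and 59, 11 and 0 list genes were called, Ccl6 joining at a log2 fold change of 1.63 in SCI against Sham (adjusted p = 0.038, edgeR). Of the other values, 256 kept their direction and side of the threshold or stayed within the spread, 10 gained a call, 10 lost one and 15 moved. Depth limits Ccr4, which had no more than 8 counts in any library.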
